A study of Mus musculus with 6 samples.

Results

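A set of 10 genes of the transforming growth factor β (TGF-β) and bone morphogenetic protein (BMP) pathway were followed across all 6 RNA-seq libraries. They were the ligand genes Tgfb1, Tgfb2 and Tgfb3, the receptor genes Tgfbr1, Tgfbr2, Eng, Acvrl1 and Bmpr2, and the inhibitory Smad genes Smad6 and Smad7. The members were chosen by name, with earlier results of these data known, and all 10 of 10 were found among the 24421 gene symbols of the count table. Skin blood endothelial cells (BECs) came from E15.5 embryos, from Tie2-Cre(-); Dot1l 2f/2f embryos (skin Cont) and from Tie2-Cre(+); Dot1l 2f/2f littermates (cKO), so both groups carried the floxed alleles and the cKO group alone carried Cre under the Tie2 promoter, which is active in endothelium and also in blood cells. The cultured cells were a yolk sac BEC line (CRL-2581) and dermal lymphatic endothelial cells (LECs, C57-6064L), each transduced with empty lentivirus (cultured Cont) or with a lentivirus coding for a dCas9-VP64 activator and guides to the promoter of Dot1l (OE), and sorted for EGFP. Dot1l encodes a histone H3 lysine methyltransferase. RNA of several embryos or flasks was pooled into 1 library per group, so each comparison within a source of cells is between 2 libraries and has no replicate test. All intervals are 95% intervals of the read counts. They hold counting error and nothing else, since amplified reads that carry no molecular identifier can be copies of 1 molecule.

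TGF-β ligands are secreted in a latent form, and once released they bind a type II receptor that recruits and phosphorylates a type I receptor, which then phosphorylates Smad transcription factors. Endothelial cells carry a pair of type I receptors for these signals. ALK5 (Tgfbr1) works with Tgfbr2 and Smad2 and Smad3, while ALK1 (Acvrl1) works with Bmpr2 and the co-receptor endoglin (Eng) and signals through Smad1 and Smad5. Loss of ALK1 or endoglin function causes hereditary hemorrhagic telangiectasia, and mutations of BMPR2 cause pulmonary arterial hypertension.

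The libraries held 8863349 to 31032461 reads. The blood endothelial markers Pecam1, Cdh5, Kdr, Flt1, Tek, Tie1, Emcn and Esam summed to 3599 to 7082 CPM (counts per 1000000 counted reads) in the 6 libraries, and 0 of 8 were at 0 in any of them. Prox1, the defining transcription factor of lymphatic endothelium, had 0 reads in cultured Cont LECs and in OE-LECs. Lyve1 had 1998 and 1962 CPM there, while Pdpn had 0 reads and Reln 1 read in each. The yolk sac line had 604 (cultured Cont BECs) and 1061 CPM (OE-BECs) of Lyve1, with 0 reads of Prox1. Flt4 had 107 CPM in cultured Cont LECs and 130 in OE-LECs, against 144 in cultured Cont BECs and 98.3 in OE-BECs. The name LECs follows the label of the cells, and their lymphatic identity was not tested. The skin BECs were isolated as negative for Lyve1, CD45 and F4/80, and a figure legend of the paper adds CD31 as a positive marker. Yet skin Cont BECs had 147 CPM of Prox1 and 1027 CPM of Lyve1. A set of 8 macrophage markers summed to 3565 CPM in skin Cont BECs and 5599 CPM in the library labelled cKO. In the cultured libraries the same 8 markers summed to 33.8 to 93.8 CPM, and Adgre1, C1qa, C1qb and C1qc were at 0 in all 4. Fibroblast markers summed to 2070 and 1544 CPM in the skin libraries against 2.21 to 19.4 CPM in culture, and mural cell markers to 545 and 439 CPM against 2.77 to 4.03 CPM. In bulk RNA, fewer cells of a type and less RNA per cell cannot be told apart. The skin Cont library had 762 reads of Dot1l and the one labelled cKO had 944. Their log2 ratio was -0.07 (-0.21 to 0.07), so the targeted gene did not separate these libraries. Counts over the whole gene do not measure the deletion of its floxed part. The paper reports RT-qPCR of Dot1l as its check of the knockout and of the overexpression. In culture the log2 ratio of Dot1l was 1.48 (1.40 to 1.55) in OE-BECs and 1.20 (1.13 to 1.27) in OE-LECs.

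Among the ligands, Tgfb1 was the most abundant in culture and Tgfb2 was largely a transcript of the skin libraries. Tgfb1, on chromosome 7 of mm10 from 25687002 to 25705077, had 49.4 CPM in skin Cont BECs, 70.4 in the library labelled cKO, 214 in cultured Cont BECs, 127 in OE-BECs, 150 in cultured Cont LECs and 127 in OE-LECs. Both skin libraries lay below all 4 cultured libraries, and only the intervals of OE-BECs and OE-LECs overlapped. Tgfb2, on chromosome 1 from 186622792 to 186705989, encodes a ligand that needs the co-receptor betaglycan for high-affinity binding. It had 47.6 CPM in skin Cont BECs, 75.4 in the library labelled cKO, 8.42 in cultured Cont BECs, 6.96 in OE-BECs, 1.91 in cultured Cont LECs and 1.90 in OE-LECs. The highest of these levels was 39.7 times the lowest, the widest range among the 10 genes, and within each cultured line the intervals of control and OE overlapped. Tgfb3, on chromosome 12 from 86056745 to 86079041, had 31.8 CPM in skin Cont BECs, 38.2 in the library labelled cKO, 70.1 in cultured Cont BECs, 8.04 in OE-BECs, 14.2 in cultured Cont LECs and 9.02 in OE-LECs. Cultured Cont BECs stood highest and OE-BECs of the same line lowest, with an interval that overlapped that of OE-LECs.

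Of the type I receptors, Tgfbr1 was higher in the skin libraries than in culture, and Acvrl1 was lower there than in culture. Tgfbr1, on chromosome 4 from 47353222 to 47414931, had 119 CPM in skin Cont BECs, 109 in the library labelled cKO, 22.2 in cultured Cont BECs, 22.7 in OE-BECs, 44.0 in cultured Cont LECs and 42.8 in OE-LECs. Each control overlapped its changed library, and the 3 sources of cells stood apart. Acvrl1, on chromosome 15 from 101128522 to 101145336, had 95.9 CPM in skin Cont BECs, 107 in the library labelled cKO, 434 in cultured Cont BECs, 254 in OE-BECs, 280 in cultured Cont LECs and 314 in OE-LECs. All 4 cultured libraries were above both skin libraries, whose intervals overlapped.

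Of the type II receptors, Tgfbr2 (chromosome 9, 116084293 to 116175360) had 395 CPM in skin Cont BECs, 331 in the library labelled cKO, 324 in cultured Cont BECs, 195 in OE-BECs, 352 in cultured Cont LECs and 301 in OE-LECs. Its highest level was 2.03 times its lowest, and the library labelled cKO could not be told from cultured Cont BECs. Bmpr2 (chromosome 1, 59763400 to 59879014) had 509.7 CPM in skin Cont BECs, 458 in the library labelled cKO, 276 in cultured Cont BECs, 186 in OE-BECs, 135 in cultured Cont LECs and 125 in OE-LECs. These levels descended in that order from skin BECs to LECs with no overlapping neighbours. Eng (chromosome 2, 32646595 to 32682669) had 247 CPM in skin Cont BECs, 272 in the library labelled cKO, 206 in cultured Cont BECs, 210 in OE-BECs, 259 in cultured Cont LECs and 294 in OE-LECs. It had the narrowest range of the 10 genes, 1.43-fold, and 3 of its 5 neighbouring pairs overlapped.

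Smad6 and Smad7 encode inhibitory Smads that are themselves targets of the pathway, Smad6 mainly of BMP signals and Smad7 of both branches. Smad6, on chromosome 9 from 63953076 to 64022059, had 7.45 CPM in skin Cont BECs, 12.7 in the library labelled cKO, 48.6 in cultured Cont BECs, 23.8 in OE-BECs, 30.4 in cultured Cont LECs and 21.7 in OE-LECs. Smad7, on chromosome 18 from 75367529 to 75395935, had 24.8 CPM in skin Cont BECs, 34.5 in the library labelled cKO, 7.41 in cultured Cont BECs, 10.98 in OE-BECs, 3.52 in cultured Cont LECs and 6.61 in OE-LECs. Cultured Cont BECs and OE-LECs overlapped in Smad7, and OE-BECs and OE-LECs in Smad6. Smad6 was lowest and Smad7 highest in the skin libraries. Of the 10 genes, 3 (Tgfb1, Acvrl1 and Smad6) had more CPM in both cultured Cont libraries than in skin Cont BECs, and 5 (Tgfb2, Tgfbr1, Tgfbr2, Bmpr2 and Smad7) had less. The shares of all genes that did so were not counted, so these counts describe the 10 genes only.

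**Figure D1:**
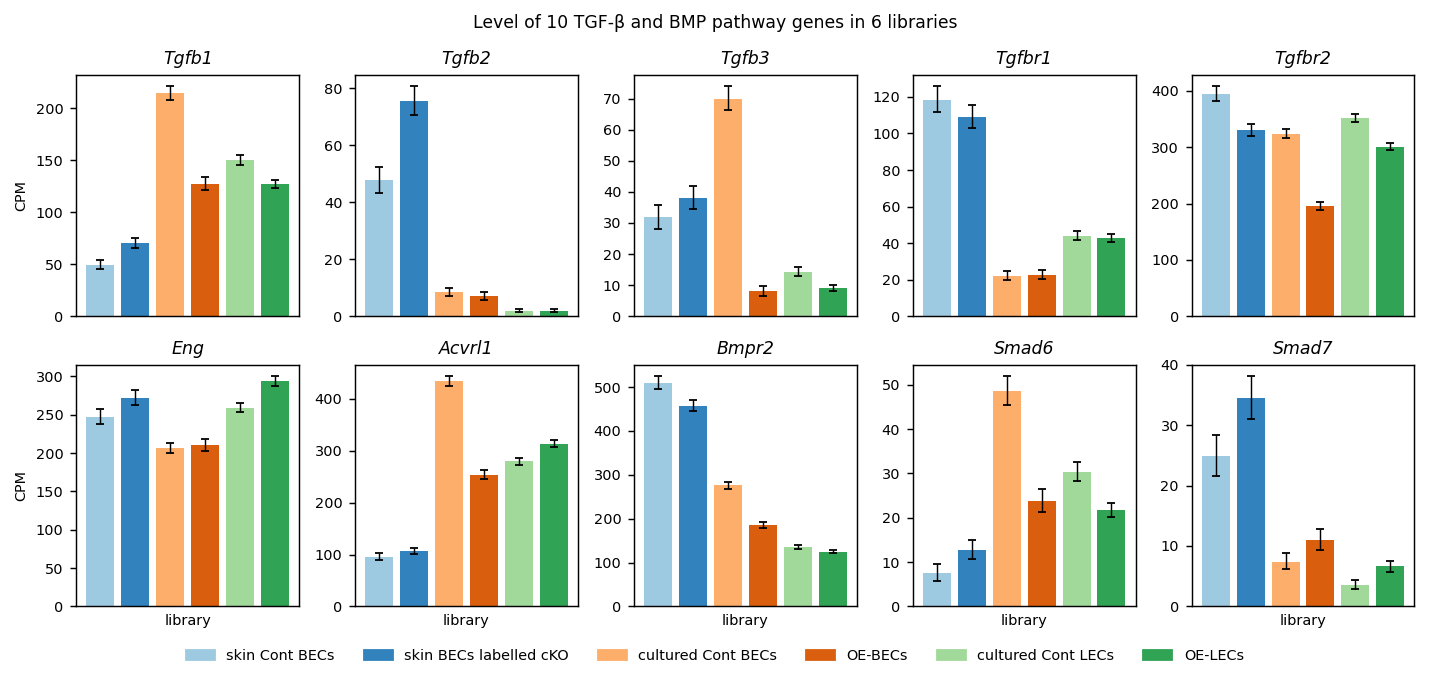
CPM of each of the 10 genes (vertical axes from 0, one scale per gene) in the 6 libraries (bars, 1 library each), with exact Poisson 95% intervals of the reads as error bars. Tgfb1, Acvrl1 and Smad6 are low in the skin libraries, whereas Tgfb2, Tgfbr1, Bmpr2 and Smad7 are high there, and Tgfb3 has 70.1 CPM in cultured Cont BECs and 8.04 in OE-BECs.

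To compare genes with each other, CPM were divided by the length of all annotated exons in kilobases (reads per kilobase per 1000000 reads). Per length, the 3 ligands were nearly even in skin Cont BECs, with 35.7% Tgfb1, 30.0% Tgfb2 and 34.3% Tgfb3. In cultured Cont BECs the shares were 65.7% Tgfb1, 2.25% Tgfb2 and 32.02% Tgfb3, and in OE-BECs they were 87.6% Tgfb1, 4.17% Tgfb2 and 8.24% Tgfb3. Cultured Cont LECs and OE-LECs had 86.8% and 89.4% Tgfb1, so the share of Tgfb1 in OE-BECs lay between those of the LEC libraries. Acvrl1 exceeded Tgfbr1 per length by 1.24 times (interval 1.13 to 1.36) in skin Cont BECs and 1.498 times (1.38 to 1.62) in the library labelled cKO. In culture that ratio was 30.0 (27.1 to 33.3) in cultured Cont BECs, 17.2 (15.3 to 19.3) in OE-BECs, 9.76 (9.17 to 10.4) in cultured Cont LECs and 11.2 (10.6 to 11.9) in OE-LECs. The ratio of Acvrl1 to Tgfbr1 was therefore lower in OE-BECs and higher in OE-LECs than in the control of each line, beyond counting error. Smad6 over Smad7 per length was 0.423 (0.316 to 0.560) in skin Cont BECs and 0.521 (0.426 to 0.633) in the library labelled cKO. It was 9.25 (7.69 to 11.2) in cultured Cont BECs against 3.05 (2.51 to 3.72) in OE-BECs, and 12.2 (9.80 to 15.3) in cultured Cont LECs against 4.64 (3.96 to 5.45) in OE-LECs. This ratio was below 1 in both skin libraries, and it was lower in OE than in Cont in both lines. Tgfbr2 over Bmpr2 per length was 1.70 (1.63 to 1.78) and 1.59 (1.52 to 1.66) in the skin libraries, 2.58 (2.48 to 2.68) and 2.31 (2.19 to 2.44) in the BEC line, and 5.71 (5.49 to 5.94) and 5.30 (5.10 to 5.50) in LECs, control first. The exon length of Bmpr2 includes every annotated exon, 17983 bases in all, which lowers its level per length where shorter forms are used. How much of the difference between skin and culture belongs to the macrophages, fibroblasts and mural cells counted in the skin libraries was not tested.

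**Figure D2:**
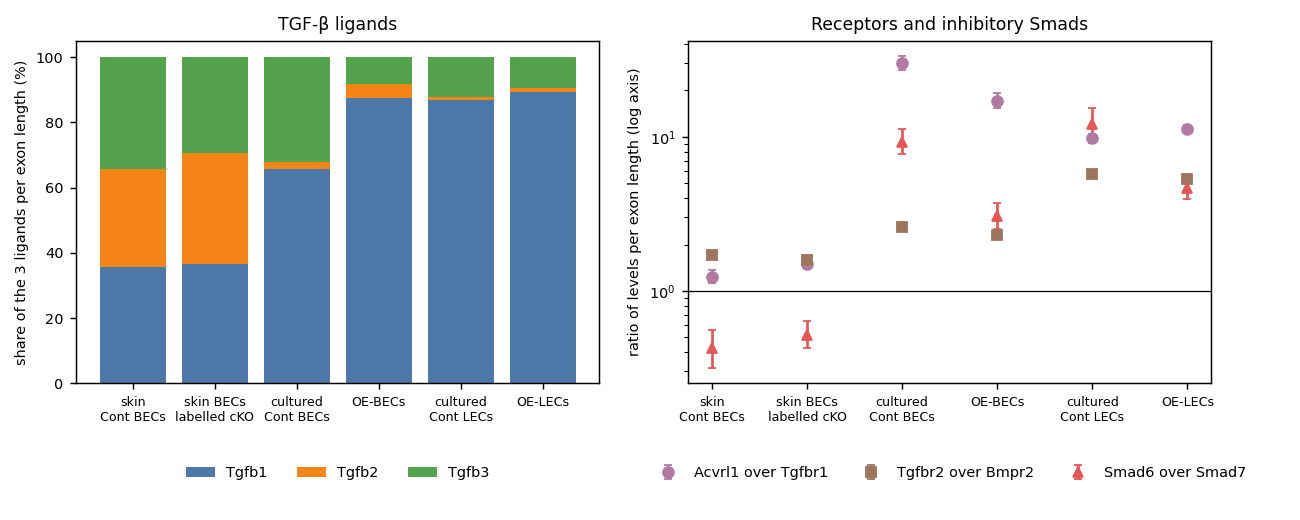
Left, share of Tgfb1, Tgfb2 and Tgfb3 in their summed level per exon length (percent) in each of the 6 libraries. Right, ratios of levels per exon length on a log axis with exact 95% counting intervals (smaller than the symbol where not visible). Tgfb2 makes up 30.0% and 34.0% in the skin libraries and at most 4.17% in culture, and Smad6 over Smad7 passes from below 1 in skin to 3.05 or more in culture.

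In the comparison of the skin libraries, which asks what loss of Dot1l in endothelium does to the transcriptome, Tgfb2 and Smad6 were higher and no member was lower by more than 1.5-fold in the library labelled cKO. Ratios were taken between normalized counts, scaled within each pair by the median of ratios, and pairs of read counts are given with the control first. A gene beyond 3-fold was counted as such when its higher library had at least 5 (skin) or 3 (culture) normalized counts, and a gene beyond 1.5-fold when it had at least 20. All 10 members passed the minimum of 20 in every pair. Of the 10 members, 0 passed 3-fold, where 5.17% of 15993 genes were higher and 2.41% lower. Past 1.5-fold, 2 members were higher and 0 lower, where 13.6% of 13638 genes were higher and 9.47% lower. The median log2 ratio was 0.15 over the members and -0.01 over all genes with at least 20 normalized counts. Tgfb2 had 422 and 836 reads, 1.52-fold higher (log2 ratio 0.61, interval 0.44 to 0.78). Smad6 had 66 and 141 reads, 1.64-fold higher (0.72, 0.29 to 1.16), the fewest reads among the members. Tgfb1 had 438 and 780 reads (0.45, 0.28 to 0.63) and Smad7 220 and 382 reads (0.42, 0.18 to 0.66), both under 1.5-fold with intervals above 0. Tgfb3 had 282 and 423 reads (0.21, -0.01 to 0.43), within counting error. The 5 receptors had log2 ratios between -0.31 and 0.10. Tgfbr2 had a log2 ratio of -0.31 (-0.38 to -0.24), Bmpr2 of -0.21 (-0.27 to -0.15) and Tgfbr1 of -0.18 (-0.30 to -0.06). Eng had 0.08 (0.00 to 0.16) and Acvrl1 0.10 (-0.03 to 0.23). Beside these values, 8 of 8 macrophage markers were higher in the library labelled cKO with a summed log2 ratio of 0.60, and 8 of 8 blood endothelial markers were lower with a summed log2 ratio of -0.79. Fibroblast (-0.48) and mural cell markers (-0.37) were lower in sum, with 5 of 6 lower in each. Of 6 keratinocyte markers, 4 were higher and 2 lower (sum 0.51). Of 5 platelet and megakaryocyte markers, 3 were higher and 2 lower, and the sum of 0.77 came mostly from Pf4 (named after its values were seen), with 150 CPM in the control and 281 in its counterpart. Of 5 lymphatic markers, 2 were higher and 3 lower, so the sum of 0.26 stood beside a list median of -0.37. The part of these cell types in the ratios of the members was not tested.

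In OE-BECs, 5 of the 10 members were lower than in cultured Cont BECs by more than 1.5-fold and 1 was higher. Among 11974 genes, 13% were lower and 10.6% higher by that rule. Past 3-fold, 1 member was lower and 0 higher, where 5.27% of 14792 genes were lower and 8.02% higher. The median log2 ratio of the members was -0.61, against -0.02 over all genes. Tgfb3 had 1239 and 112 reads, 8.48-fold lower (log2 ratio -3.08, interval -3.38 to -2.80). The gene Ttll5, which overlaps an exon of Tgfb3 on the opposite strand and could share reads with it, had 829 and 486 reads (log2 ratio -0.39, -0.55 to -0.22). Whether the counting used strand is not clear from the sources used here. Smad6 had 859 and 331 reads, 1.99-fold lower (-0.99, -1.18 to -0.81). The ALK1 gene Acvrl1 had 7674 and 3541 reads, 1.66-fold lower (-0.73, -0.79 to -0.68). Tgfb1 had 3790 and 1774 reads, 1.64-fold lower (-0.71, -0.79 to -0.63), and Tgfbr2 5731 and 2721 reads, 1.62-fold lower (-0.69, -0.76 to -0.63). Bmpr2 had 4880 and 2590 reads and stopped short of 1.5-fold (-0.53, -0.60 to -0.46). Smad7 was the member on the other side, with 131 and 153 reads (0.61, 0.26 to 0.95), 1.52-fold. Scaled by total counts, Smad7 was under 1.5-fold and 0 members were higher. Eng (0.07, 0.00 to 0.14), Tgfbr1 (0.07, -0.15 to 0.29) and Tgfb2 (-0.24, -0.62 to 0.14) did not leave 0 beyond counting error. All 8 blood endothelial markers were lower in OE-BECs too, with a summed log2 ratio of -0.63. In OE-LECs, 7 of them were lower and 1 higher than in cultured Cont LECs, with a summed log2 ratio of -0.10. The relation of these markers to the members was not tested.

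The promoter table of RefSeq (GRCm38.p6, the mm10 build) held 7 of the 10 members, Tgfb3, Acvrl1 and Smad7 not among them. The stretches from 250 to 31 bases upstream of the start are printed for the 3 genes that were lower together in OE-BECs (Tgfb1, Tgfbr2 and Smad6) and for Eng, which differed little in any comparison. Capitals mark matches to CAGAC, the core letters that Smad3 and Smad4 bind, on either strand, or to GGCGCC, a GC-rich form of the Smad site. Each is written 5′ to 3′ on the strand of its gene.
Tgfb1 (chr7:25686752-25686971, plus strand): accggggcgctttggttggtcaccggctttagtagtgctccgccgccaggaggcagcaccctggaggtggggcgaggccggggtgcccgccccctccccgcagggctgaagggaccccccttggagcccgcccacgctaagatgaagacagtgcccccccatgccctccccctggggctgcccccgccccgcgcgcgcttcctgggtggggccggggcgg
Tgfbr2 (chr9:116175394-116175613, minus strand): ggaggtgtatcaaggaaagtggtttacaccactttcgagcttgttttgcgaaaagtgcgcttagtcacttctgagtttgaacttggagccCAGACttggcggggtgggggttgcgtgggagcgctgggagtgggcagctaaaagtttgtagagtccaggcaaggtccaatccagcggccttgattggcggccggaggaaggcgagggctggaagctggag
Smad6 (chr9:64022090-64022309, minus strand): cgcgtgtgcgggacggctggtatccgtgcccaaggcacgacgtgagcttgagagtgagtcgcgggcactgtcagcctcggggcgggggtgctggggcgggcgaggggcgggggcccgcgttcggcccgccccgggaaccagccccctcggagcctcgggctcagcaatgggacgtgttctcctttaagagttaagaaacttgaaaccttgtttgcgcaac
Eng (chr2:32646345-32646564, plus strand): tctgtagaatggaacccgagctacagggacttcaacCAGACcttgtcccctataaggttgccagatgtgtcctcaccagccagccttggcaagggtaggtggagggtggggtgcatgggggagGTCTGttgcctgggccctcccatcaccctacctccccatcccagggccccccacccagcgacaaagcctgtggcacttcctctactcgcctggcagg
CAGAC was found once in Tgfbr2 and at 2 positions in Eng, and neither motif was found in the windows of Tgfb1 and Smad6. Of all 32851 promoter windows of 220 bases, 38.5% held CAGAC and 8.16% held GGCGCC. The windows of Tgfb1 and Smad6 were rich in G and C, with 75.5% and 67.3% against a median of 51.8% over all windows, and those of Tgfbr2 and Eng had 56.4% and 61.8%. A match is only a match of letters, and no match says nothing about whether a Smad binds.

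In OE-LECs, Smad7 was higher and Tgfb3 lower than in cultured Cont LECs by more than 1.5-fold, and the other 8 members were not past that fold. In this pair 5.25% of 11858 genes were higher and 4.76% lower by more than 1.5-fold. Of the members, 0 passed 3-fold, where 2.77% of 13883 genes were higher and 2.09% lower. Smad7 had 92 and 205 reads, 1.90-fold higher (log2 ratio 0.93, interval 0.56 to 1.30). Tgfb3 had 371 and 280 reads, 1.55-fold lower (-0.64, -0.87 to -0.41), while Ttll5 on the other strand had 960 and 918 reads (-0.30, -0.43 to -0.16). Smad6 had 794 and 674 reads (-0.47, -0.62 to -0.32), so the inhibitory Smads lay on opposite sides of 0 in LECs as in BECs. Tgfb1 (-0.23, -0.29 to -0.16), Tgfbr2 (-0.21, -0.25 to -0.16) and Bmpr2 (-0.10, -0.16 to -0.03) were slightly lower, and Eng (0.20, 0.16 to 0.25) and Acvrl1 (0.18, 0.14 to 0.23) slightly higher. Eng overlaps an exon of Fpgs on the opposite strand, which had 1102 and 1347 reads. Tgfbr1 (-0.02, -0.14 to 0.09) and Tgfb2 (0.01, -0.56 to 0.58) did not differ beyond counting error, and with only 50 and 59 reads a change of Tgfb2 of up to 1.5-fold was not detectable at this depth.

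**Figure D3:**
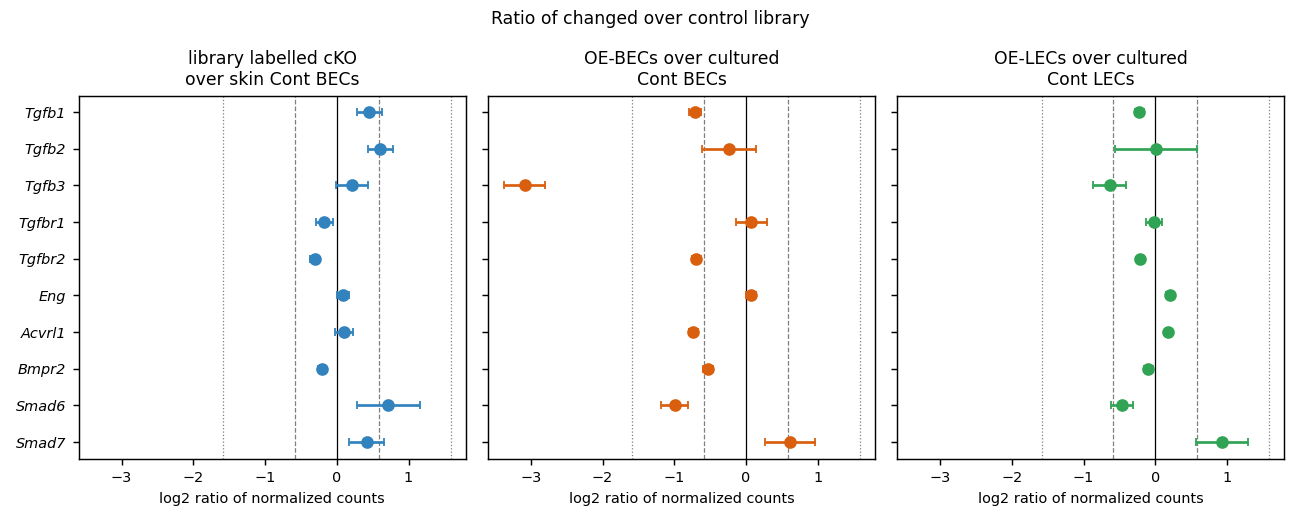
Log2 ratios of normalized counts (changed over control library, horizontal axes) for the 10 genes in the 3 comparisons, with exact 95% counting intervals (smaller than the symbol where not visible). Dashed lines mark 1.5-fold and dotted lines 3-fold. Tgfb3 at -3.08 in OE-BECs is the only point beyond 3-fold, and Smad7 lies right of 0 in all 3 comparisons.

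The responses of the cultured lines to the same vector were then set against each other. The difference of the log2 ratios (LECs minus BECs) had a counting interval that left out 0 for 7 of the 10 members, and in all 7 it was positive. It was 2.45 (2.09 to 2.81) for Tgfb3, 0.92 (0.84 to 0.99) for Acvrl1, 0.53 (0.29 to 0.76) for Smad6, 0.49 (0.38 to 0.59) for Tgfb1, 0.49 (0.41 to 0.56) for Tgfbr2, 0.43 (0.34 to 0.53) for Bmpr2 and 0.14 (0.05 to 0.22) for Eng. Acvrl1 was the member with intervals on opposite sides of 0 in the lines. For Smad7 the difference was 0.32 (-0.17 to 0.81), for Tgfb2 0.24 (-0.41 to 0.90) and for Tgfbr1 -0.09 (-0.33 to 0.15). With 1 library per group, these differences between lines have no replicate check. The share of all genes whose interval left out 0 was not counted, so the 7 of 10 cannot be read as particular to the members. When both lines were fitted together with the line as a block (4 libraries, 1 residual degree of freedom), 0 of the 10 members passed an adjusted p of 0.05 in edgeR's quasi-likelihood test with Benjamini-Hochberg adjustment, where 0.228% of 12712 genes were called higher and 0.511% lower. At an unadjusted p under 0.05 there were 5 members, Smad7 higher and Tgfb1, Tgfb3, Tgfbr2 and Smad6 lower, where 5.07% of all genes were higher and 5.92% lower. Among the 10 members, the smallest adjusted p in that edgeR fit was 0.19 for Smad6 (log2 ratio -0.72, lower in 2 of 2 lines). Next was 0.20 for Tgfb3 (-1.83, lower in 2 of 2 lines). The error in this fit joins a gene's own difference between the lines with a trend pooled over all fitted genes. Its p-values therefore do not measure the difference between the lines alone.

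A further 63 genes of the pathway, in 8 lists by role, were counted in the same way. In the skin pair, 56 of the 63 had at least 20 normalized counts, and 11 were higher and 8 lower by more than 1.5-fold, with a median log2 ratio of -0.16. Over all genes 13.6% were higher and 9.47% lower. Among the other ligands, 3 of 7 were higher and 0 lower. Bmp6 had 22 reads in the control and 139 in its counterpart (log2 ratio 2.28, interval 1.63 to 3.0), Bmp4 63 and 181 (1.14, 0.72 to 1.58) and Inhba, a subunit of activin A, 21 and 45 (0.72, -0.06 to 1.54). Bmp5 was the lowest of this list, with 75 and 73 reads (-0.42). Of the 9 genes of latency and storage, Thbs1, which can activate latent TGF-β, had 1504 and 9862 reads (2.34, 2.26 to 2.41), and Lrrc32, which holds latent TGF-β at the cell surface, 377 and 765 (0.64, 0.46 to 0.82). Ltbp1, a latent TGF-β binding protein, was lower, with 1429 and 981 reads (-0.92, -1.04 to -0.80). The 8 other receptors had a median of -0.52, and Tgfbr3 (betaglycan; -0.74, -0.84 to -0.64) and Acvr2b (-0.59, -1.20 to 0.02) were past 1.5-fold, while Acvr1b was highest at 0.49. The 5 counted Smads of the signalling kind ranged from -0.49 (Smad1) to 0.01 (Smad3), none past 1.5-fold. Among the regulators inside the cell Fkbp1a was lower (-0.67) and Nedd4l highest (0.22), and among the antagonists the activin-binding Fst was higher (0.82, 0.39 to 1.26) and Twsg1 lower (-0.65). Of 8 BMP and ALK1 targets, 2 were higher and 3 lower, with Atoh8 (0.60) higher and Gja4 (-1.15), Hey2 (-0.72) and Hey1 (-0.64) lower. Of 7 TGF-β and ALK5 targets, 3 were higher and 0 lower: Ctgf (Ccn2; 276 and 1356 reads, 1.92), Fn1 (5894 and 20102 reads, 1.39) and Tgfbi (1097 and 3047 reads, 1.10), with Col1a1 lowest at -0.58. Macrophages also express Thbs1 and Fn1, and the share of these reads that belongs to them was not tested.

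In OE-BECs, 40 of the 63 genes had at least 20 normalized counts, and 8 were higher and 7 lower, with a median log2 ratio of 0.01. Over all genes 10.6% were higher and 13% lower. The activin subunit gene Inhbb had 7036 and 2079 reads (-1.38, -1.45 to -1.31), and Bmp4 had 276 and 428 (1.02, 0.79 to 1.24). Lrrc32 had 9120 and 2725 reads (-1.36, -1.42 to -1.30), whereas Ltbp1 had 509 and 1414 (1.86, 1.71 to 2.01) and Thbs1 1176 and 2256 (1.32, 1.22 to 1.43). The genes that store or release latent TGF-β therefore lay on both sides of their control. Smad1, a signalling Smad of the ALK1 branch, had 3104 and 1367 reads (-0.80, -0.89 to -0.71), and Smad4 was highest of that list at 0.13. Acvr1 was higher (0.74, 0.51 to 0.97) and Acvr2a lowest of the receptors (-0.28). The repressor gene Skil was lower (-0.77) and Nedd4l highest among the regulators (0.48). Of the antagonists Chrd had only 11 and 28 reads (1.73, 0.68 to 2.89) and Bmper 46 and 22 (-0.68, -1.48 to 0.08). Id3, a classic BMP target, had 104 and 173 reads (1.12, 0.76 to 1.48), while Hey1 had 51 and 10 (-1.97, -3.11 to -0.97). Among 5 counted TGF-β and ALK5 targets, Ctgf (961 and 2573 reads, 1.8) was higher and Tgfbi (1900 and 209 reads, -2.80) was lower.

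In OE-LECs, 41 of the 63 genes were counted, and 4 were higher and 4 lower, with a median log2 ratio of 0.06. Over all genes 5.25% were higher and 4.76% lower. Inhbb had 13031 and 6921 reads (-1.14, -1.19 to -1.10), Smad1 5020 and 2896 (-1.02, -1.09 to -0.96) and Tgfbi 2820 and 1155 (-1.52, -1.62 to -1.42). All 3 were lower in OE-BECs as well. Ltbp2 had only 22 and 16 reads (-0.69, -1.72 to 0.30). Higher were Chrd (55 and 162 reads, 1.33), Id3 (442 and 860, 0.73), Bmper (75 and 145, 0.72) and Ltbp1 (3164 and 5879, 0.66). Chrd, Id3 and Ltbp1 were higher in OE-BECs too, on a separate pair of libraries, whereas Bmper was lower there (-0.68, -1.48 to 0.08). The share of all genes past 1.5-fold on the same side in both lines was not counted. Other list ends lay within 1.5-fold: Bmp4 at -0.39, Bambi at -0.15, Acvr1 at 0.46, Smad3 at 0.15, Skil at -0.35, Ski at 0.17, Fst at -0.28 and Id1 at 0.10. Bmpr1a, named here after its values were seen, is a type I receptor for BMP ligands. It had 467 and 419 reads in the skin libraries but 0 in cultured Cont BECs and 0 in cultured Cont LECs, which allows up to 0.170 and 0.115 CPM there, and 2 and 5 reads in OE-BECs and OE-LECs. Inhbb showed the reverse, with 3.16 and 4.06 CPM in the skin libraries and 149 to 499 CPM in culture.

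**Figure D4:**
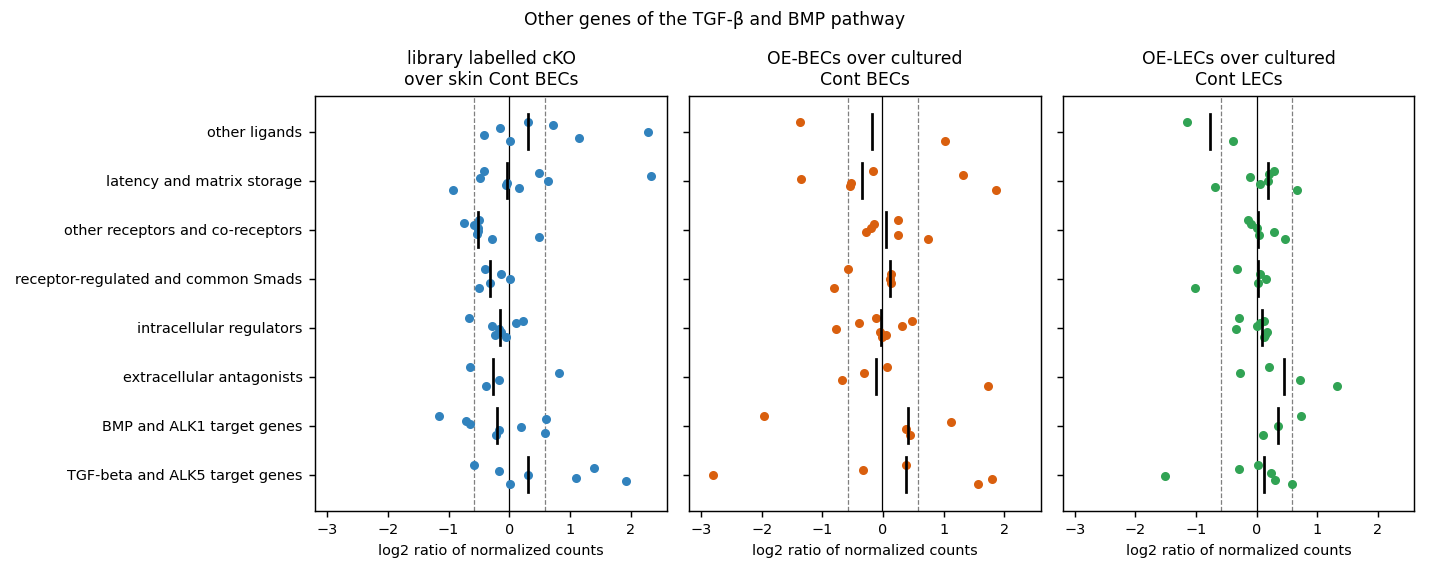
Log2 ratios of normalized counts (horizontal axes) for the genes of 8 further pathway lists with at least 20 normalized counts (points) in the 3 comparisons, with the list median (thick black mark), the median of all genes (thin line) and 1.5-fold (dashed lines). The lists spread to both sides, and the TGF-β and ALK5 targets run from -2.80 (Tgfbi) to 1.8 (Ctgf) in OE-BECs.

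For each member, the genes with the most similar pattern over the 6 libraries were sought among 9707 genes with a mean of at least 10 CPM, by the root mean square difference of their centred log2(CPM + 1). Tgfb1 and Smad6 were each other's nearest gene (0.15). Acvrl1 was nearest to Ceacam1 (0.06) and Sgcd (0.07), Bmpr2 to 4932438A13Rik (0.03) and Rgs3 (0.08), and Eng to Polk (0.05) and Agps (0.06). Tgfbr2 was nearest to Aldh6a1 (0.06) and Fam210b (0.08), and Tgfbr1 to Gpbp1 (0.10) and Slc4a7 (0.11). Such nearness was common. Within a fixed distance, the same for every member, lay 5083 of the 9707 genes for Eng, 4217 for Tgfbr2 and 1480 for Tgfb1. The counts were 1188 for Acvrl1, 1137 for Bmpr2, 670 for Tgfbr1 and 585 for Smad6. The patterns of Tgfb2, Tgfb3 and Smad7 had fewer close neighbours, with 29, 9 and 313 genes within that distance. Tgfb3 lay at 0.20 from Ccdc3 and 0.40 from Pde7b, Tgfb2 at 0.29 from Map3k1 and 0.31 from Dlc1, and Smad7 at 0.25 from Stk24 and 0.25 from Ikzf2. The second nearest gene was Fzd5 (0.16) for Tgfb1 and Tex2 (0.17) for Smad6. The 6 points of each pattern share 3 sources of cells, so these distances describe likeness across those sources and carry no p-value.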

How the data were processed

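Total RNA of 6 mouse endothelial samples was sequenced by the authors from ScriptSeq v2 libraries, 1 library per group. The authors trimmed adapters with skewer, aligned the reads to mm10 with STAR, counted them per gene with VERSE (option -S) and deposited raw counts for 24421 gene symbols, 4473 of them without a read. Total counts ran from 8863349 to 31032461, which sets the counting intervals. Groups follow the labels. The members and lists were chosen with earlier results of these data known. CPM had exact Poisson intervals. Within each pair, counts were scaled by the median of ratios of DESeq2 1.42.0 in R 4.3.3, and log2 ratios had exact Clopper-Pearson intervals. Ctgf is listed under that older symbol. Exon lengths and positions came from GENCODE M21. A pathway gene was named when past 1.5-fold (at most 4 per list and comparison by size) or at an end of its list, and for each member the 2 genes nearest in pattern were named. A pathway gene that this rule names is not reported here. Alternatives were TMM factors of edgeR 4.0.16, total counts, size factors from all 6 libraries or without 1311 ribosomal and small RNA genes, other minimum counts and a pseudocount of 1. The 4 cultured libraries were also fitted with edgeR (TMM, filterByExpr, quasi-likelihood) with the cell line as a block, a fit added after the data were seen, since each line gave a control and an OE library. The ratio and call steps were tested on simulated pairs that held counting error only, and the fit on 4 simulated libraries. Python 3.11.15, scipy 1.17.1 and pandas 2.3.3 were used.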

Additional observations from a re-analysis of the deposited data

Results flagged for a closer look

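In OE-BECs and OE-LECs, 6 genes of the pathway lay on opposite sides of 0 with both counting intervals clear of it. Among the 10 members this was Acvrl1, with a log2 ratio of -0.73 in OE-BECs and 0.18 in OE-LECs, a difference (LECs minus BECs) of 0.92. Among the 39 further pathway genes counted in both lines, the difference was -1.41 for Bmp4 (1.02 in OE-BECs and -0.39 in OE-LECs), 0.72 for Ltbp4 (-0.53 and 0.19), -0.68 for Fn1 (0.39 and -0.30), 0.57 for Acvr2a (-0.28 and 0.29) and 0.44 for Itgav (-0.16 and 0.28). With 1 library per group, none of these differences was tested against replicates. How many of all genes meet this rule was not counted, so the count of 6 cannot be read as particular to the pathway.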

How the results depend on the processing

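Under 4 other scalings and a pseudocount of 1, the log2 ratios of the 10 members in the 3 comparisons moved by at most 0.06, and 1 of 150 values changed sign, that of Tgfb2 in OE-LECs, whose interval spans 0. Scaled by total counts, 0 members were higher by more than 1.5-fold in OE-BECs, against 1 (Smad7, 1.52-fold). Without a minimum count, genes with few reads enter: the pathway lists then had 13 genes past 1.5-fold upward and 14 downward in OE-BECs (8 and 7 with it), and in OE-LECs 13 upward and 7 downward (4 and 4 with it). The other 91 counts recomputed stayed within 1.5 times those reported. The paired fit of OE over Cont, chosen after seeing the data, called 29 genes higher and 65 lower with the line as replicate block and 0 and 0 without it (62 and 103 at an unadjusted p under 0.05, edgeR). No member was called in either. Leaving out a library would leave that fit no residual degree of freedom. Depth limits Tgfb2 in LECs, Smad7 in culture and Smad6 in skin.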
